A study of Mus musculus with 8 samples.

Results

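The genes described are 42 cell cycle and proliferation genes, listed by name. The rule that picks them uses no measured value, though the list was drawn up with earlier results of these data known. They were looked up by gene symbol in a table of 15035 genes measured in mouse auditory nerve. 37 of the 42 were found, and all 37 passed the filter on low values, which asked for 10 or more normalized counts in 4 or more libraries and kept 14870 genes. The other 5, Ccnb1, Bub1, Aurkb, Plk1 and Nusap1, were not analysed here. A normalized count is a gene's read count divided by a factor for the size of its library.

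The nerves were taken from mouse cochleas on postnatal day 21, and each library came from the pooled nerves of both cochleas of 1 mouse. The wild-type group had 4 libraries, numbered 1 to 4, and the Mef2c heterozygote (+/-) group had 4, numbered 5 to 8. Mef2c encodes a MADS-box transcription factor. The allele, the strain, the sex and any litter or batch were not given in the sources used here, and no treatment is named.

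The auditory nerve carries the axons of the spiral ganglion neurons, wrapped by Schwann cells in the cochlea and by oligodendrocytes nearer the brain. Its neurons have left the cell cycle for good, and cells that can still divide around it include glial precursors, blood-forming cells and cells of the surrounding bone. In a dividing cell, D-type cyclins with Cdk4 and Cdk6, then cyclin E with Cdk2, inactivate the retinoblastoma proteins and release E2F factors, which turn on the genes of DNA replication. Genes of late S phase, G2 and mitosis are turned on later, and the Cip/Kip proteins Cdkn1a, Cdkn1b and Cdkn1c hold the kinases in check. Several members also act outside division: D-type cyclins, Cdk4 and the Cip/Kip inhibitors are made in resting and differentiated cells, and Pcna also serves in DNA repair.

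The late and the early genes carry different control sequences, and promoters of both kinds are shown here because the 2 kinds of gene are described separately below. The DREAM complex (retinoblastoma-like proteins, E2F and MuvB) represses late genes through an element called CHR, usually with CCAAT boxes bound by NF-Y upstream of it. The next lines give the 250 bases before the start of each gene, from RefSeq on build GRCm38.p6, written 5′ to 3′ on the gene's strand. Capitals mark the CHR letters TTTGAA or their reverse complement in the first 4 genes. In the fifth gene, a helicase subunit, they mark words of the E2F site, where TTGGCGC on the printed strand overlaps TTCGCGC on the other.
Mki67 (chr7:135716380-135716629, minus strand): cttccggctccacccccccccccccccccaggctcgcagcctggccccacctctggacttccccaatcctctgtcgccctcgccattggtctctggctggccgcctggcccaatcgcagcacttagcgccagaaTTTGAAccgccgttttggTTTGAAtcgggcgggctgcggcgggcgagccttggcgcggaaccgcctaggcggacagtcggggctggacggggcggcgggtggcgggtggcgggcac
Top2a (chr11:99024190-99024439, minus strand): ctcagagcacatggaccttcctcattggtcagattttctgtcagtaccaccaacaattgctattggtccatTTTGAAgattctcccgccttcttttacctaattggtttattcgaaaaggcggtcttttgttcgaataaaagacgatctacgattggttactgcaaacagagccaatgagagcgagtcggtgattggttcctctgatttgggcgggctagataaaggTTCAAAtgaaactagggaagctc
Cdk1 (chr10:69352913-69353162, minus strand): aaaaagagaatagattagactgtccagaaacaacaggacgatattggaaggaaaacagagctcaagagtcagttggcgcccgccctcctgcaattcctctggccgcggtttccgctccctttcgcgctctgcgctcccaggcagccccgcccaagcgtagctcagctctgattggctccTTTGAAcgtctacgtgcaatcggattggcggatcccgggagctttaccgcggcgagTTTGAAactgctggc
Ube2c (chr2:164769679-164769928, plus strand): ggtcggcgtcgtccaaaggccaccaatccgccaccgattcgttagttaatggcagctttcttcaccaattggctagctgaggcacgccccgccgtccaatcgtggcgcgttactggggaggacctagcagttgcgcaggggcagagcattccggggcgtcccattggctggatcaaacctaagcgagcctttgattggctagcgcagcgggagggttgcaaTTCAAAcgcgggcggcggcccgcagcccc
Mcm6 (chr1:128359706-128359955, minus strand): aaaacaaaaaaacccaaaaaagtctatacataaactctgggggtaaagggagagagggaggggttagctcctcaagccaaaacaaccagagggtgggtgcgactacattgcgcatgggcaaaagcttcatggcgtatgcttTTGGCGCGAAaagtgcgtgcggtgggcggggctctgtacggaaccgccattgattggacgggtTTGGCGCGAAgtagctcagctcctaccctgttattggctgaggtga

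Counted from the start site, the CHR letters of Mki67 began at positions -116 and -98 and those of Cdk1 at -71 and -15. In Top2a they began at -179 and, on the other strand, at -23, and in Ube2c at -29 on the other strand. A promoter was in the RefSeq table for 29 of the 37 members, and the windows searched held 250 bases before the start and 50 from it on. The words searched on both strands were TTTGAA for CHR, CCAAT for the CCAAT box, and, for E2F, any one of TTCCCGC or TTGGCGC or TTCGCGC or TTGCCGC, some of which can overlap. CHR letters stood in 9 of 10 promoters (90%) of the late S to M members and in 1 of 11 (9.09%) of the replication members, against 20.2% of 27025 promoters of all genes. The E2F words ran the other way, in 2 of 10 late promoters (20%) and 8 of 11 replication promoters (72.7%), against 10.9% of all promoters. CCAAT stood in 9 of 10 late promoters and 9 of 11 replication promoters (81.8%), against 41.1% of all. Birc5, the inhibitor of apoptosis of the chromosomal passenger complex, was the late member without the CHR letters in this window. A match is a description of the letters and was not tested as a binding site.

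Library size, estimated from the step between low values, ran from 13363365 to 21507072 reads, and 3 reads corresponded to 2.37 to 3.89 normalized counts. Schwann cell and neuron markers were high in every library, with summed levels of 139099 to 168537 for 8 Schwann cell genes and 172303 to 240420 for 10 neuronal genes. Mef2c itself went against its label: it was at 438.6, 498.4, 508.7 and 402.2 in wild type and at 583.3, 704.9, 735.1 and 649.8 in the libraries labelled heterozygote. That is a log2 fold change of 0.53 (SE 0.13), heterozygote over wild type, with an adjusted p of 0.186 in limma, and the groups did not overlap. The authors' deposited table gives a ratio of 1.44 with an FDR of 0.0162 for the gene. Which part of the gene is altered was not given in the sources used here, so it is not known whether a value over the whole gene can check the label. Directions below are therefore those of the labelled libraries. Xist was at 12.0 in wild type 1 and 7.6 in heterozygote 5, against 5175.3 to 8615.3 in the other 6 libraries. For members given library by library, the log2 fold change without those 2 libraries stands beside the pooled one.

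No member passed an adjusted p of 0.05 between the genotypes, and the genotypes overlapped for all 37. The smallest adjusted p was 0.329, for Ccna2. Of all tested genes, 0.0807% passed (12 genes), 0.00672% as higher (1 gene) and 0.074% as lower (11 genes), and 7.26% did not overlap between genotypes. At an unadjusted limma p of 0.05, 1 member passed, Ccna2, higher in the libraries labelled heterozygote. That is 2.7% of the members, against 14.1% of all genes, of which 6.72% were higher and 7.34% lower. The fold change pointed up for 25 members and down for 12. The 67.6% pointing up stands beside 52.3% of all genes, and the median log2 fold change beside it was 0.08 for the members and 0.02 for all genes. In the authors' deposited table none of the 37 members (0) had an FDR under 0.05, against 1.61% of all genes, and 3 had a p under 0.05, against 15.3%: Ccna2 (p 0.0175), Cdk1 (p 0.0365) and Mki67 (p 0.041).

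**Figure D1:**
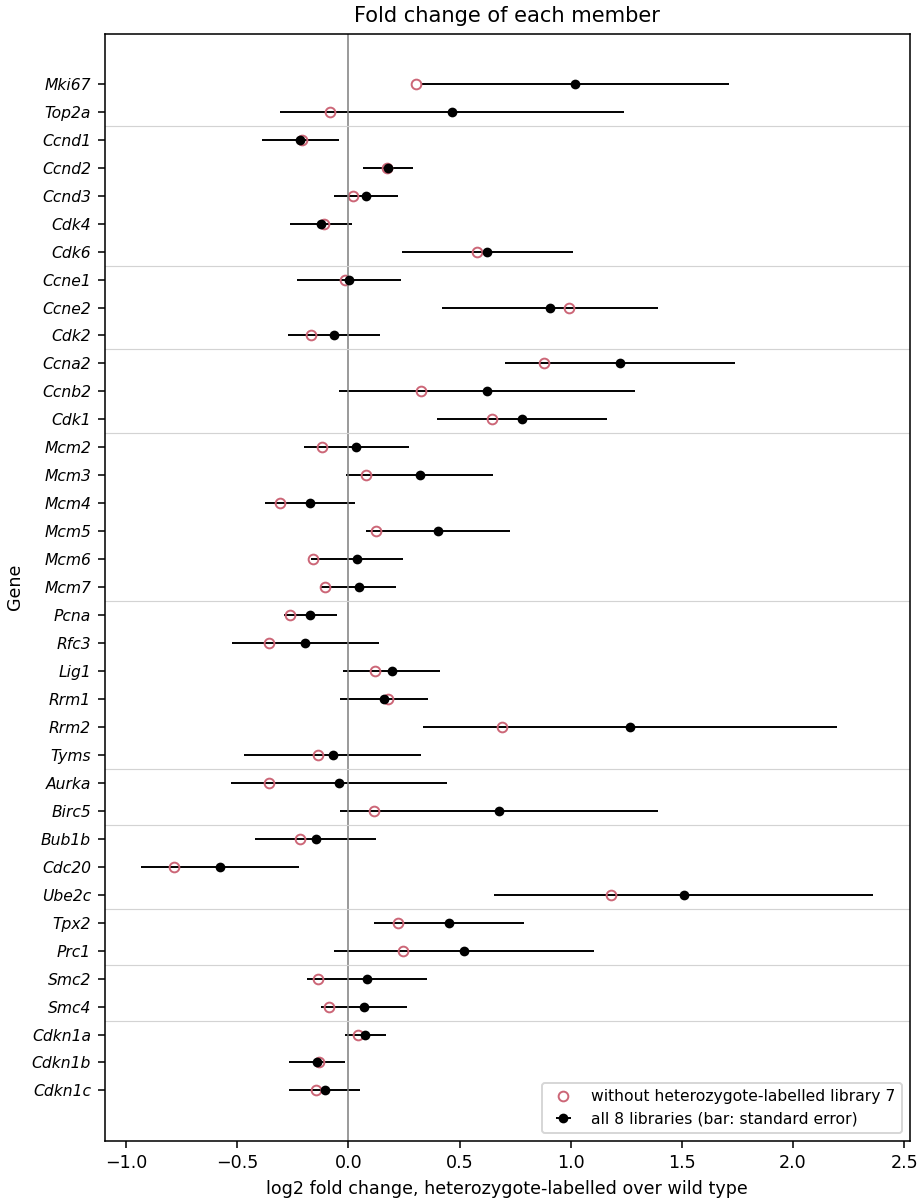
Log2 fold change of each of the 37 members (libraries labelled heterozygote over wild type, limma on log2 of normalized counts + 1), grouped by role, with standard errors and with the value found when heterozygote 7 is left out. Values ran from -0.58 for Cdc20 to 1.51 for Ube2c, no member passed an adjusted p of 0.05, and the value of Mki67 went from 1.02 to 0.30 without that library.

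Levels per length of transcript put the brakes of the cell cycle first. On the scale of normalized counts per kb, the wild-type mean was 1129 ± 96.0 (SD, n = 4) for Cdkn1b, 1046 ± 210 for Cdkn1c and 961 ± 86.3 for Cdkn1a, and the spread of these 3 overlapped. Pcna, the sliding clamp of DNA polymerase, followed at 552 ± 36.8 and Cdk4 at 457 ± 92.8. Ccnd3 was at 316 ± 60.9, Ccnd2 at 154 ± 18.3 and Ccnd1 at 130 ± 13.0, so the D-type cyclins led the cyclins among the members. Outside the members, the cyclin genes Ccnh and Ccng1 were higher, with wild-type means of 378 and 338. The helicase subunits lay from 28.1 ± 10.1 for Mcm3 to 113 ± 10.01 for Mcm7. Most late S to M genes stood in the lower part of the order, though Cdc20 was 15th at 57.6 ± 23.0, and Tyms, Rrm2, Ccne2 and Cdk6 lay among them at 12.1 to 6.71. Ccna2 was at 9.46 ± 4.78, Top2a at 7.49 ± 5.41, Cdk1 at 6.97 ± 1.86, Ube2c at 5.40 ± 7.12, Mki67 at 4.03 ± 1.49 and Birc5 at 3.31 ± 1.67. Neighbours among the genes from Ccna2 down did not differ beyond their spread. The length used was that of each gene's longest transcript, so the order depends on that choice, and other lengths were not tried.

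**Figure D2:**
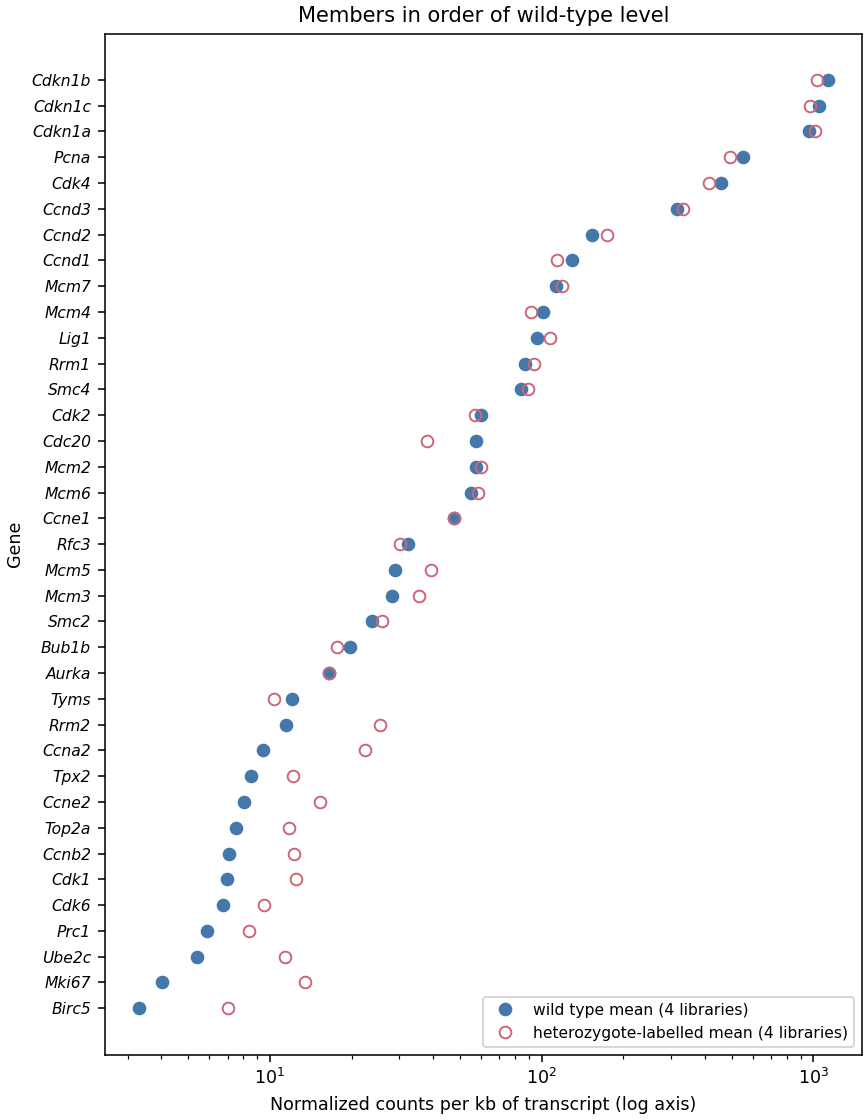
Mean level of each of the 37 members in wild type (filled) and in the libraries labelled heterozygote (open), in normalized counts per kb of the longest transcript on a log axis, ordered by wild-type level. Cdkn1b, Cdkn1c and Cdkn1a lie at the top, near 1000, and Mki67 and Birc5 at the bottom, at 4.03 and 3.31 in wild type.

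Mki67, the antigen of dividing cells that is recognised by the Ki-67 stain, was at 62.3, 30.0, 31.2 and 38.7 normalized counts in wild type 1 to 4. In heterozygotes 5 to 8 it was at 29.3, 28.8, 356.2 and 130.3. Heterozygotes 7 and 8 stood above every wild-type library, and heterozygotes 5 and 6 lay just under the lowest wild type, at 30.0. The means were 40.6 ± 15.0 and 136 ± 154 (SD, n = 4 each), with a log2 fold change of 1.02 (SE 0.69) and an adjusted p of 0.508 in limma. Without heterozygote 7 the log2 fold change was 0.30, and without the 2 low-Xist libraries 1.71.

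Top2a encodes the topoisomerase that untangles replicated chromosomes. It was at 76.6, 37.9, 8.2 and 33.8 in wild type and at 10.9, 28.8, 134.8 and 72.2 in the libraries labelled heterozygote. Heterozygote 7 was again the highest, but wild type 1 came next, above heterozygote 8. A log2 fold change of 0.47 (SE 0.77, adjusted p 0.798) turned to -0.08 without heterozygote 7. It was 1.52 without the 2 low-Xist libraries.

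Cyclin A, cyclin B and Cdk1 drive the cell through S phase and into mitosis. Ccna2 was at 24.2, 36.8, 9.8 and 41.4 in wild type and at 37.3, 38.7, 120.3 and 68.8 in the heterozygotes. Its 2 highest libraries were heterozygotes 7 and 8, while heterozygotes 5 and 6 lay within the wild-type range. The means were 28.1 ± 14.2 and 66.3 ± 38.8 (SD, n = 4 each), and the log2 fold change was 1.22 (SE 0.52, limma unadjusted p 0.036, adjusted p 0.329). Without heterozygote 7 it was 0.88 with an unadjusted limma p of 0.131, and leaving out heterozygote 8 also took that p over 0.05. Without the 2 low-Xist libraries the value was 1.43.

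Cdk1, the mitotic kinase, was at 40.2, 29.2, 32.1 and 20.5 in wild type and at 29.3, 52.3, 68.8 and 67.5 in the heterozygotes. Heterozygotes 6, 7 and 8 exceeded every wild-type library, and heterozygote 5 lay among them. On the log2 scale the fold change was 0.78 (SE 0.38, adjusted p 0.375), 0.65 without heterozygote 7 and 1.19 without the 2 low-Xist libraries. Ccnb2, a B-type cyclin, was low, from 6.0 to 20.8 in wild type and from 6.1 to 30.0 in the heterozygotes, and reached 10 normalized counts in 4 libraries.

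The remaining late genes act in mitosis itself. Birc5 was at 11.7, 18.1, 4.6 and 9.7 in wild type and at 7.6, 7.0, 55.6 and 23.4 in the heterozygotes. Its 2 highest libraries were again heterozygotes 7 and 8, and heterozygotes 5 and 6 lay within the wild-type range. Its log2 fold change of 0.68 became 0.11 without heterozygote 7 and 1.09 without the 2 low-Xist libraries.

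Ube2c, the ubiquitin-conjugating enzyme of the anaphase-promoting complex, was at 35.0, 4.7, 6.4 and 1.2 in wild type and at 8.7, 13.1, 41.5 and 36.6 in the heterozygotes. Wild type 1 stood with heterozygotes 7 and 8, and the value of wild type 4 was under that of 3 reads. The log2 fold change was 1.51 (SE 0.85, adjusted p 0.429), the largest among the members. Without wild type 1 alone it was 2.26 (unadjusted limma p 0.0109, adjusted p 0.291), and without both low-Xist libraries 2.64.

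Cdc20, the activator of the same complex, pointed the other way. It was at 63.6, 145.1, 72.4 and 131.7 in wild type and at 68.4, 41.8, 99.9 and 60.9 in the heterozygotes. Wild types 2 and 4 exceeded all heterozygotes, while wild types 1 and 3 lay within their range. The log2 fold change was -0.58 (SE 0.35, adjusted p 0.464), -0.78 without heterozygote 7 and -0.80 without the 2 low-Xist libraries. Aurka, a spindle kinase, ranged from 17.3 to 50.6 in wild type and from 14.8 to 55.6 in the heterozygotes. Bub1b, of the spindle checkpoint, ranged from 57.6 to 89.5 and from 50.6 to 75.8. Tpx2, which activates Aurka on the spindle, and Prc1, which bundles the midzone, were highest in heterozygote 7 at 82.9 and 49.0, against 31.5 to 48.8 and 6.3 to 35.6 in the other 7 libraries. The condensin subunits Smc2 and Smc4 had the same highest library, at 213.0 and 525.8, and their log2 fold changes were 0.08 and 0.07.

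**Figure D3:**
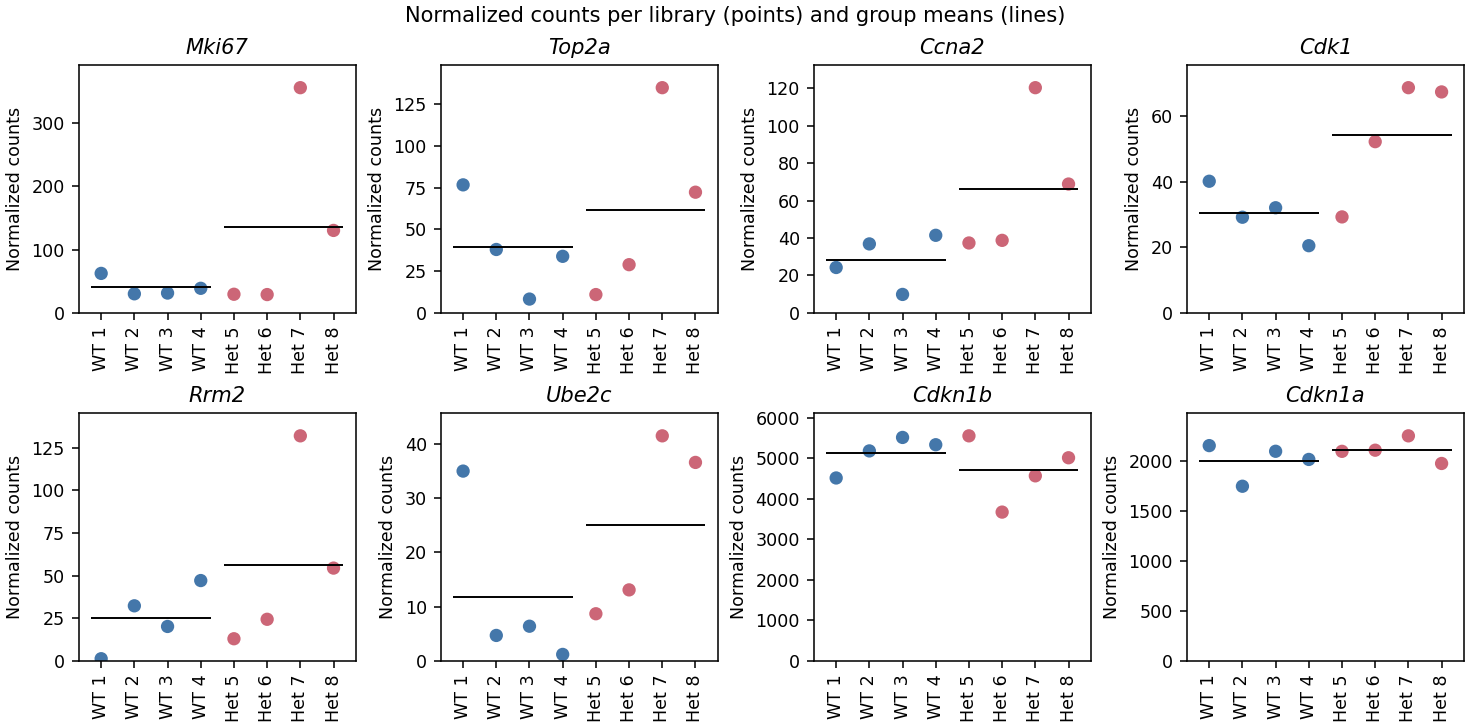
Normalized counts of 8 members, 1 point for each of the 8 libraries (wild type 1 to 4 in blue, heterozygote 5 to 8 in red) with a line at each group mean, each panel with its own axis from 0. Mki67 reached 356.2 in heterozygote 7 against 28.8 to 130.3 elsewhere, while Cdkn1b lay between 3676.0 and 5559.3 in all libraries.

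The D-type cyclins and Cdk4 act at the opening of the cell cycle, and each had a coefficient of variation under 20% over the 8 libraries. Ccnd1 was at 414.6, 495.4, 508.0 and 524.0 in wild type and at 298.8, 487.8, 409.2 and 502.8 in the heterozygotes. The ranges overlapped, with heterozygote 5 the lowest. The means were 485.5 ± 48.7 and 424.7 ± 93.4 (SD, n = 4 each), and the log2 fold change was -0.22 (SE 0.17, adjusted p 0.568, limma), and -0.13 without the 2 low-Xist libraries.

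Cdk4, the partner kinase of the D-type cyclins, was at 1179.7, 908.4, 715.9 and 951.8 in wild type and at 874.4, 897.4, 824.6 and 799.8 in the heterozygotes. The heterozygotes lay inside the wild-type range, and the log2 fold change was -0.12 (SE 0.14, adjusted p 0.692), and -0.02 without the 2 low-Xist libraries. Ccnd2 and Ccnd3 had log2 fold changes of 0.18 and 0.08. Cdk6, the second partner kinase, ranged from 28.6 to 102.7 in wild type and from 80.4 to 133.1 in the heterozygotes, with a log2 fold change of 0.63 (SE 0.38, adjusted p 0.464) and a coefficient of variation of 33.6%.

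Cyclin E starts replication with Cdk2. Ccne2 was at 19.0, 10.9, 36.6 and 30.2 in wild type and at 23.4, 72.6, 35.4 and 52.0 in the heterozygotes. Here heterozygote 6, not 7, was the highest. Its log2 fold change was 0.91 (SE 0.49, adjusted p 0.405), 0.99 without heterozygote 7 and 1.12 without the 2 low-Xist libraries. Its coefficient of variation was 56.1%. Ccne1 and Cdk2 had log2 fold changes of 0.003 and -0.06.

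The 6 MCM proteins form the helicase that opens DNA at origins. Mcm2 was at 199.9, 154.6, 189.7 and 258.5 in wild type and at 138.0, 217.0, 278.9 and 200.6 in the heterozygotes, a log2 fold change of 0.04 (SE 0.24, adjusted p 0.955), and 0.23 without the 2 low-Xist libraries. Mcm4 was at 438.6, 373.0, 300.7 and 341.8 in wild type and at 218.3, 327.6, 421.2 and 345.0 in the heterozygotes, a log2 fold change of -0.17 (SE 0.20, adjusted p 0.705), and 0.10 without the 2 low-Xist libraries. Heterozygote 7 was the highest library for all but Mcm4. The summed level of the 6 genes was 1414.6, 1321.7, 1196.2 and 1402.3 in wild type and 1081.9, 1267.0, 1961.9 and 1279.7 in the heterozygotes. The median log2 fold change of the 6 was 0.04, and -0.11 without heterozygote 7.

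Genes of the replication fork and of nucleotide supply had a median log2 fold change of 0.04. Pcna was at 883.8, 822.5, 766.3 and 881.7 in wild type and at 706.0, 654.3, 897.1 and 737.9 in the heterozygotes. Heterozygote 7 was the highest of all 8, and the other 3 heterozygotes lay below every wild-type library. The log2 fold change was -0.17 (SE 0.12, adjusted p 0.519), and -0.26 without heterozygote 7 with an unadjusted limma p of 0.0503. Without the 2 low-Xist libraries it was -0.12.

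Rfc3, of the loader that places the Pcna ring, was at 85.7, 105.7, 92.6 and 68.8 in wild type and at 50.0, 52.3, 107.4 and 119.1 in the heterozygotes. Heterozygotes 5 and 6 lay below and 7 and 8 above every wild-type library, and the log2 fold change was -0.19 (SE 0.33, adjusted p 0.806), and -0.002 without the 2 low-Xist libraries. Rrm2, the subunit of ribonucleotide reductase made in S phase, was at 1.3, 32.3, 20.2 and 47.1 in wild type and at 13.0, 24.4, 131.9 and 54.4 in the heterozygotes. Wild type 1, at under the value of 3 reads, was the lowest and heterozygotes 7 and 8 the highest, with a log2 fold change of 1.27 (SE 0.93, adjusted p 0.537). That value rests largely on wild type 1: it was 0.31 without that library, 0.69 without heterozygote 7 and 0.82 without both low-Xist libraries. Rrm1, the large subunit of the same enzyme, stayed between 493.8 and 564.6 except in wild type 1, at 282.9. Tyms, which makes thymidylate, and Lig1, which joins Okazaki fragments, had log2 fold changes of -0.07 and 0.19.

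The Cip/Kip inhibitors were the most abundant members, and their ranges overlapped between genotypes. Cdkn1a was at 2149.1, 1743.5, 2092.6 and 2011.1 in wild type and at 2092.0, 2103.3, 2246.6 and 1970.8 in the heterozygotes, a log2 fold change of 0.08 (SE 0.09, adjusted p 0.720). Cdkn1b was at 4518.8, 5187.1, 5520.0 and 5339.9 in wild type and at 5559.3, 3676.0, 4571.5 and 5018.1 in the heterozygotes, a log2 fold change of -0.14 (SE 0.13, adjusted p 0.613). Cdkn1c was at 2494.3, 1925.7, 1519.8 and 2014.7 in wild type and at 1639.1, 2261.0, 1968.6 and 1501.1 in the heterozygotes, a log2 fold change of -0.11 (SE 0.16, adjusted p 0.775). Without the 2 low-Xist libraries the values of Cdkn1a, Cdkn1b and Cdkn1c were 0.11, -0.29 and 0.06.

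Single libraries stood apart for many members. Heterozygote 7 was the highest of the 8 libraries for 19 of 37 members (51.4%), against 8.21% of all tested genes. Wild type 1, the highest library for 26.1% of all genes, was the highest for 7 members. Heterozygotes 7 and 8 were the 2 highest libraries for 11 members (29.7%), against 5.51% of all genes. The library was picked after its values were seen, so these counts describe it and carry no test. Heterozygote 7 was at least 2-fold over the median of the other 7 libraries for 11 members (29.7%), against 1.71% of all genes. The ratio was 11.4 for Mki67, 5.73 for Birc5, 5.41 for Rrm2, 4.77 for Ube2c, 3.99 for Top2a and 2.14 for Cdk1. Of the 18 members with a mean under 100 normalized counts, 9 were 2-fold up in this library, against 2 of the 19 with a mean of 100 or more. The coefficient of variation over the 8 libraries was over 60% for 7 members, Mki67, Top2a, Ccna2, Ccnb2, Rrm2, Birc5 and Ube2c. It was under 20% for 13, among them the D-type cyclins, Cdk4, Pcna and the Cip/Kip inhibitors.

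**Figure D4:**
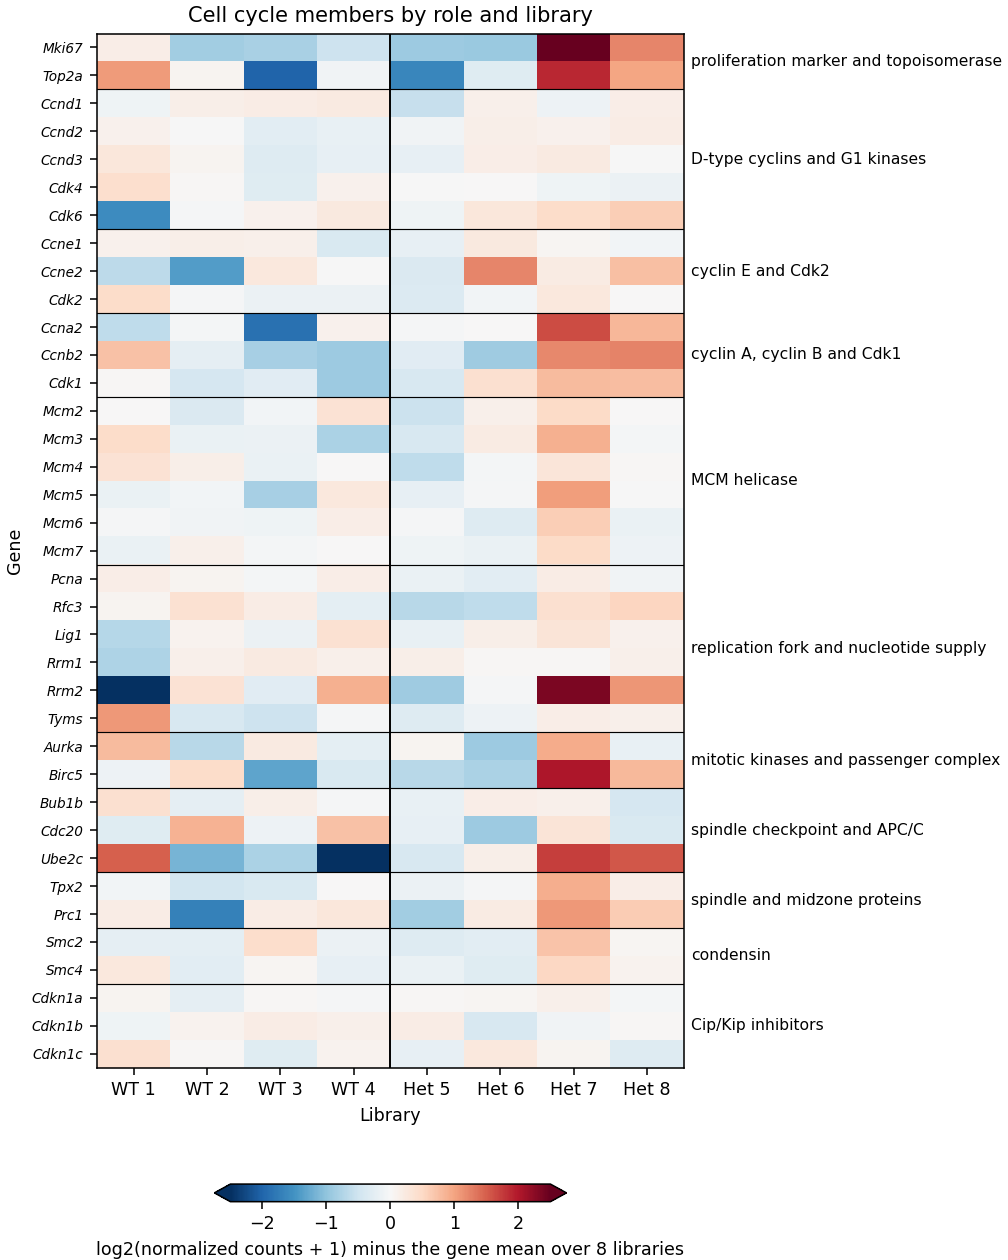
Each member's log2 level in each of the 8 libraries relative to its mean over them, in rows grouped by role, with colours limited to 2.5 in either direction. Red is above and blue below the mean. Heterozygote 7 is the reddest library in 9 of the 12 rows of late S to M genes, and the rows of D-type cyclins and Cip/Kip inhibitors are pale throughout.

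The 12 late S to M members found, of 17 listed, summed to 542.0, 424.8, 338.9 and 444.9 in wild type and to 342.4, 376.0, 1168.2 and 650.0 in the heterozygotes. Heterozygotes 7 and 8 exceeded every wild-type library, and heterozygote 5 lay within the wild-type range, as did heterozygote 6. Their median log2 fold change was 0.57, and 0.23 without heterozygote 7. This grouping joins the roles from cyclin A to the midzone with Mki67 and Top2a, and was formed with these values known.

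Among the marker lists of other cells, those of neutrophils and of B lineage cells had the same 2 highest libraries. The red cell and bone lists were high in heterozygote 7 and also in wild type 1. For neutrophils and their marrow precursors, 6 of 12 listed genes were found, none at 0 in any library. Their summed level was 2567.1, 173.5, 412.5 and 158.3 in wild type and 1496.7, 738.8, 7054.5 and 5229.9 in the heterozygotes. At an unadjusted limma p of 0.05, 5 of the 6 were higher, against 6.72% of all genes, and 0 passed after adjustment. For 3 of the 6 all heterozygotes were above all wild types, against 3.4% of all genes. In wild type 1 most of the sum was Ltf, at 2176.4. Mpo, Elane, Prtn3, Ctsg, Camp and Retnlg of that list were not analysed here. For red blood cells, 7 of 10 genes were found, with summed levels of 34445.3, 14044.5, 10170.7 and 22396.2 in wild type and 9825.1, 8543.0, 29309.5 and 14908.8 in the heterozygotes. The 4 globin genes and Alas2 were highest in wild type 1, and 5 of the 7 log2 fold changes pointed down. Slc4a1, the anion exchanger of the red cell membrane, was 1 of 2 that were highest in heterozygote 7, at 547.5 against 6.1 to 63.8 elsewhere. For 6 of the 7, heterozygote 7 was at least 2-fold over the median of the other 7 libraries, against 1.71% of all genes. The 10 osteoblast and osteocyte genes summed to 19925.2, 8958.3, 8456.8 and 5901.3 in wild type and to 12282, 15318.5, 26421.9 and 16548.8 in the heterozygotes. All 10 log2 fold changes pointed up, with a median of 0.54, and the genotypes overlapped for each gene. At an unadjusted limma p of 0.05, 5 were higher, against 6.72% of all genes, and 0 passed after adjustment. Heterozygote 7 was the highest library for 7 of the 10, against 8.21% of all genes. The part of marrow, blood or bone cells in the levels of the cell cycle genes was not tested. In bulk tissue, more dividing cells and more transcript in each dividing cell cannot be told apart.

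Oligodendrocyte precursors also divide in young nerve. Their 8 listed genes summed to 14616.6, 13228.1, 11680.8 and 12851.2 in wild type and to 9576.1, 10188.3, 10669.6 and 10391.5 in the heterozygotes, and these sums did not overlap. The genes of that list differed among themselves, and whether all 8 mark dividing precursors was not tested. Bcas1, the most abundant, was lower in all heterozygotes, at 2886.0 to 3521.5 against 4259.7 to 6278.4. Cspg4 was at 280.6 to 367.5 against 225.5 to 271.8, highest in heterozygote 7. Pdgfra overlapped, at 2176.8 to 2712.1 against 2265.9 to 2978.4. The part of these cells in the levels of the cell cycle genes was not tested. No gene of that list passed an adjusted p of 0.05. At an unadjusted limma p of 0.05, 5 were lower and 1 higher, against 7.34% and 6.72% of all genes. Of 10 oligodendrocyte genes 7 passed an adjusted p of 0.05, all lower, against 0.074% of all genes. Sums of 3 B lineage genes ran from 1487.2 to 1679.3 in wild type and from 1596.2 to 2076.9 in the heterozygotes. They were highest in heterozygote 8, at 2076.9, and heterozygote 7, at 1783.0. Those of 10 macrophage genes ran from 5128.6 to 7886.4 and from 4530.6 to 6749.3. Those of 8 endothelial genes, from 7563.1 to 9781.3 and from 6655.1 to 7377.8, also did not overlap between genotypes. Taken singly, 0 of these 8 genes separated the genotypes, against 7.26% of all genes. Their log2 fold changes pointed up for 4 and down for 4, with a median of -0.04. At an unadjusted limma p of 0.05, 3 were lower and 0 higher, against 7.34% and 6.72% of all genes. The 7 fibroblast genes summed to 21990.1 to 41173.8 in wild type and 30121.6 to 37953.4 in the heterozygotes.

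**Figure D5:**
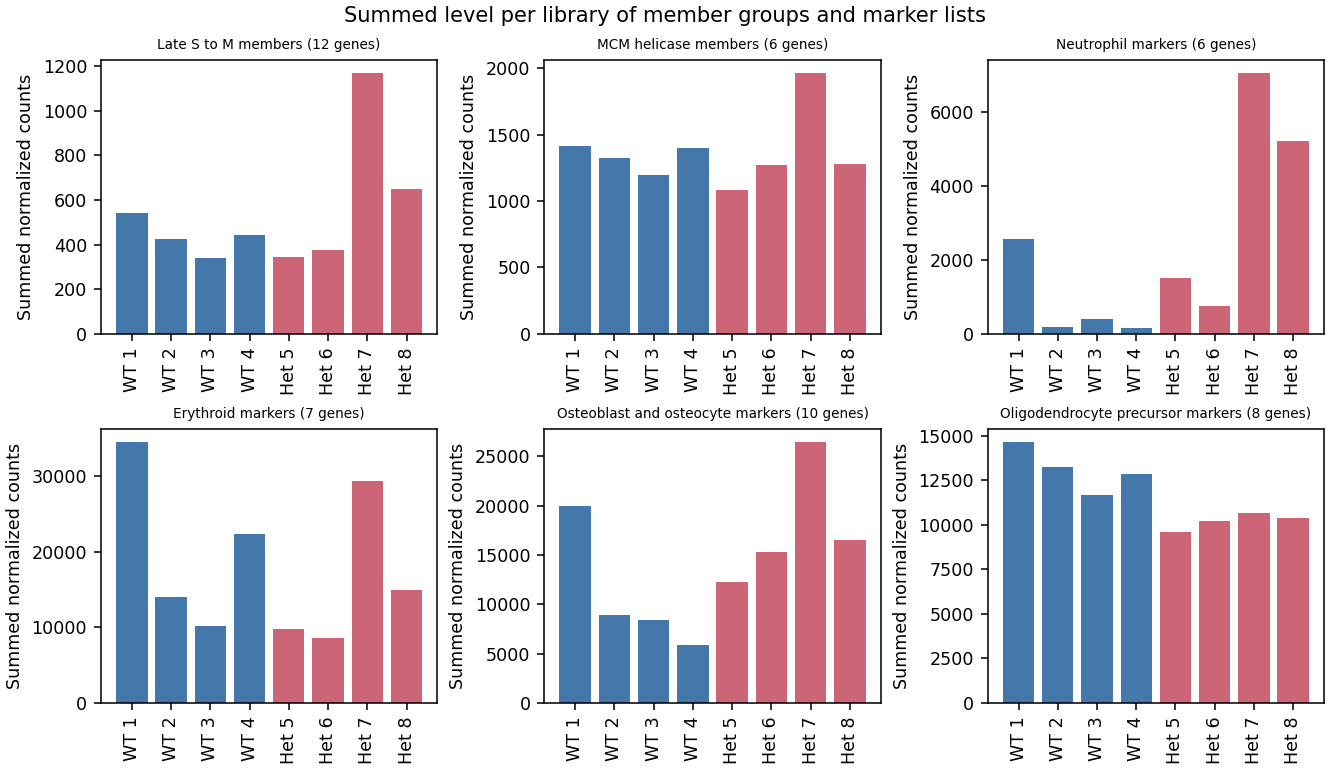
Summed normalized counts in each of the 8 libraries for the late S to M members, the MCM helicase members and for marker lists of other cells (wild type blue, heterozygote red), each panel with its own axis from 0. Heterozygotes 7 and 8 are the 2 highest for the late members (1168.2 and 650.0) and the neutrophil list (7054.5 and 5229.9). The sum of the precursor list is lower in all 4 heterozygotes, though not every gene in it is.

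Leaving out the 2 libraries low in Xist left 3 libraries of each genotype. The log2 fold change was then higher for 11 of the 12 late S to M members and lower for Cdc20. In that comparison 8 members (21.6%) had an unadjusted limma p under 0.05, against 13.5% of all genes, and none passed the adjusted threshold. They were Mki67 (log2 fold change 1.71), Top2a (1.52), Ccna2 (1.43), Cdk1 (1.19), Ube2c (2.64), Ccnd2 (0.30) and Mcm3 (0.72), all higher, and Cdkn1b (-0.29), lower. The median log2 fold change was 0.23 for all members and 1.13 for the late S to M members. The 2 libraries left out were 1 of each genotype. For Top2a and Ube2c, wild type 1 was the highest wild-type library and heterozygote 5 the lowest heterozygote. Too few libraries were low in Xist for a comparison among themselves.

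The wider machinery of the cell cycle was read from 167 further genes in 9 lists, of which 134 were tested. 1 passed an adjusted p of 0.05. 17 (12.7%) had an unadjusted limma p under 0.05, 7 higher and 10 lower, near the 14.1% of all genes. 11 (8.21%) did not overlap between genotypes, near the 7.26% of all genes. Of these, 6 (4.48%) were higher and 5 (3.73%) lower in all heterozygotes, against 3.4% and 3.86% of all genes. The fold change pointed up for 68 and down for 66, with a median log2 value of 0.002. Heterozygote 7 was the highest library for 26 of the 134 (19.4%), between the share for the members and that for all genes. The one that passed was Anln, the anillin scaffold of the cytokinetic ring, which is also on the oligodendrocyte list. It fell from 1020.1, 1326.4, 1199.0 and 1247.7 in wild type to 499.7, 692.7, 757.7 and 665.7 in the heterozygotes. The log2 fold change was -0.88 (SE 0.14, adjusted p 0.0495), and over the alternatives its adjusted p ran from 0.0134 to 0.229, so the call was lost under several of them. With 1 library left out, its adjusted p was 0.175 without wild type 2, 0.229 without wild type 4, and 0.103, 0.0670, 0.0570 and 0.221 without heterozygotes 5, 6, 7 and 8.

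By list, the count with an unadjusted limma p under 0.05, which 14.1% of all genes had, was 2 of 17 for the RB, E2F and DREAM factors, both higher, and 1 of 12, lower, for INK4 and other regulators of the kinases. For the licensing and firing of origins it was 2 of 16, 1 in each direction. For the DNA polymerases and their supply it was 5 of 22, 1 higher and 4 lower. In mitosis it was 1 of 10 for the kinetochore, higher, and 2 of 9 for kinesins and cytokinesis, 1 in each direction. For condensin, cohesin and separase it was 1 of 12, lower, for the APC/C and SCF ubiquitin ligases 2 of 18, 1 in each direction, and for p53 and its targets 1 of 18, lower. Of these counts, Anln alone passed after adjustment.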

How the data were processed

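RNA was sequenced from 8 auditory nerve samples as poly(A) directional libraries, per the labels' protocols, and the groups came from the sample titles. The submitters' processing notes name Partek, STAR, DESeq2 and mm10, with no versions, roles or order. The authors deposited 1 table whose signal columns hold read counts per gene after division by a factor for each library, rounded to 1 decimal. This was read off the values. Its other deposited columns are, per the file headers, the authors' p-value with its FDR, a ratio and the same ratio as log2. A last deposited column, a fold change with a sign (a score), was not used.

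87.9% to 91.9% of low values were whole multiples of the estimated value of 1 read, under the 95% needed to recover reads, so no count model was used and the estimated reads served only for depth and limma-voom. How precise a comparison is depends on how far libraries of a group differ. Values were analysed as log2(value + 1), a scale on which changes of low genes are understated. Genes with at least 10 in at least 4 libraries were tested with limma-trend (two-sided, no covariate), with Benjamini-Hochberg adjustment over all tested genes and a threshold of 0.05. Levels per kb used the longest GENCODE M21 transcript, found for all 37 members. Promoters came from RefSeq.

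Alternatives were other pseudocounts, filters and scalings, limma-voom, low Xist as a covariate, its 2 libraries left out, a length correction (loess, span 0.5), and each library left out. On simulated data for this comparison with 14870 genes and 200 changed, 152 were found again: 63% for 2-fold changes and 89% for 4-fold changes. 11 unchanged genes were called, and 0 with none changed. The changed genes were drawn at random from all tested genes. The shares found again among low and variable genes such as the late members were not measured.

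Members and gene lists alike were chosen with earlier results of these data known, although the rule for the members uses no measured value. Values in every library are given by rule for members past a threshold, for the 5 with the largest change in each direction, for the 5 most variable and for a fixed set spread over the roles. From each pathway or marker list at most 3 genes with the smallest p could be named. Genes named beyond that rule after their values were seen are Pold2, Ccng1, Slc4a1, Ltf, Alas2, Pdgfra, Cspg4 and the globin genes. The software was limma 3.58.1 in R 4.3.3, and pandas 2.3.3, numpy 2.4.6 and matplotlib 3.10.9 in Python 3.11.15.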

Additional observations from a re-analysis of the deposited data

Results flagged for a closer look

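In each genotype of 4 libraries, a member's highest or lowest library was compared with its nearest neighbour, as the gap divided by the whole range. Of 76 groups examined, which include Mef2c, 7 exceeded Dixon's critical value, where chance gives about 3.8. In 2 of the 7, both helicase subunits, heterozygote 7 was the high library. Mcm5 was at 223.3 there against 94.5 to 107.8 in the other heterozygotes (gap 0.897 of the range), and Mcm7 was at 475.0 against 305.0 to 315.0 (0.941). Wild type 1 was set apart for 2 genes in opposite directions, low for Rrm1 at 282.9 against 527.5 to 564.6 (0.868) and high for Ube2c at 35.0 against 1.2 to 6.4 (0.846). Wild type 4 was low for Ccne1 at 72.5 against 102.5 to 104.1 (0.949). Prc1 was low in wild type 2 at 6.3 against 25.7 to 27.8 (0.902), and Smc2 was high in wild type 3 at 176.9 against 110.4 to 117.2 (0.898).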

How the results depend on the processing

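Under all 18 alternatives 0 members passed an adjusted p of 0.05 in limma, and the lowest adjusted p of any member was 0.216, for Ccne2. 21 of the 37 kept their direction under every alternative, and 16 changed sign under at least 1, among them Top2a, with none over 0.47 in size on the log2 scale in the fit to all libraries. The members' median log2 fold change ran from -0.01 without heterozygote 7 to 0.23 without the 2 libraries low in Xist. The count of members with an unadjusted limma p under 0.05, 1 in the fit to all libraries, was 0 with at least 50 normalized counts required, 2 with low Xist as a covariate and 8 without the low-Xist libraries. With 1 library left out it ran from 0 (heterozygote 7 or 8) to 5 (wild type 1). Under the filter at 50, the late S to M median was -0.36, but only Bub1b and Cdc20 of these members were left. Both already pointed down in the fit to all libraries, at -0.15 and -0.58. Over all genes, 12 called became 7 with quantile normalization and 30 with the length correction, and from 0 (without wild type 2, wild type 4 or heterozygote 8) to 221 (without wild type 3) with 1 library left out. The causes were not tested. The direction of Mef2c stayed up in every alternative, with an adjusted p from 0.0544 to 0.551. No paired analysis was possible because the replicate numbers of the genotypes are not shared. Depth limits the low members: Ccnb2, Birc5 and Ube2c reached 10 normalized counts in 4 libraries each.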

Other observations

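6 of the 134 tested genes of the wider cell cycle lists (4.48%) had all 4 heterozygotes above all 4 wild types, and 5 (3.73%) had them all below. These shares are near those of all tested genes, 3.4% and 3.86%, so the genes are listed as values only. They are named after their values were seen, and none of the 6 higher genes passed an adjusted p of 0.05 in limma. Pole, the catalytic subunit of the leading-strand DNA polymerase, was at 41.5, 52.8, 68.7 and 49.5 in wild type and at 129.3, 98.5, 130.0 and 151.9 in the heterozygotes. Its log2 fold change was 1.25 (SE 0.26, adjusted p 0.123), and 1.24 without heterozygote 7. Cdc6, which loads the helicase at origins, was at 23.4, 11.0, 8.2 and 6.0 in wild type and at 34.8, 24.4, 42.4 and 30.0 in the heterozygotes, a log2 fold change of 1.505 (SE 0.50, adjusted p 0.267). Cit, the citron kinase of cytokinesis, was at 75.3, 73.3, 147.6 and 62.8 and at 177.1, 215.2, 167.7 and 188.5, a log2 fold change of 1.13 (SE 0.27, adjusted p 0.190). Cenpf, a protein of the outer kinetochore, lay from 7.8 to 14.5 and from 21.8 to 32.0, with a log2 fold change of 1.18. Rbl1, a retinoblastoma-like protein of DREAM, and Tfdp2, a partner of E2F, had log2 fold changes of 0.70 and 0.26. Cenpf, Cit and Pole have long transcripts, and with the length correction their log2 fold changes were 0.91, 0.88 and 1.07, while that of Tfdp2 went to 0.07.

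Of the 5 genes lower in every heterozygote, Anln is described above and the others are Pold1, Pold2, Orc6 and Phlda3. Pold1, the catalytic subunit of DNA polymerase delta, was at 404.9, 382.4, 361.2 and 357.5 in wild type and at 274.8, 252.7, 322.3 and 304.7 in the heterozygotes, a log2 fold change of -0.39 (SE 0.14, adjusted p 0.279). The value for Pold2, of the same polymerase, was -0.32. Rpa2, of the protein that coats single-stranded DNA, overlapped between genotypes, with -0.67 (SE 0.26, adjusted p 0.307). Orc6, of the origin recognition complex, had -0.38 (adjusted p 0.360), and -0.24 with the length correction. Phlda3, a target of p53, lay from 1637.8 to 1758.6 in wild type and from 1179.5 to 1443.6 in the heterozygotes, with -0.39 (adjusted p 0.178), and -0.25 with the length correction.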
